A study of Cenchrus purpureus with 8 samples.

Results

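The 200 loci described here are the most variable of those with reads in every entry of a napiergrass (Cenchrus purpureus) young stem RNA-seq series. A locus is a group of assembled transcripts that share an identifier up to its last number, and its reads are the summed reads of its transcripts. A read counted for several transcripts enters this sum several times. Levels are given as CPM, the reads of a locus scaled to the total reads of its library. Of 66981 loci, 30054 had fewer than 10 transcripts, at least 10 reads in each of the 8 libraries and a mean of at most 200 CPM, and the 200 with the largest standard deviation (SD) of log2 CPM over the 8 libraries were taken. The rule used the level in every library, so levels, spreads and patterns over the entries are given below as descriptions.

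Napiergrass is a tall perennial forage grass, outcrossing and propagated by cuttings, and it is an allotetraploid, so that many genes are present as related copies from its parental genomes. The young stem holds the elongating internodes, where cell walls are still being built and lignin starts to be laid down. Entries of a germplasm bank are different genotypes, and transcript levels of the same organ are known to differ between genotypes. The files give the loci numbers and no gene names, so no function can be stated for any locus, no pathway list could be matched and the tissue could not be checked against marker genes.

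Each library came from the uppermost stem nodes of 1 entry. The series groups the entries by lignin production, as found in earlier work of the laboratory. The high lignin entries were BAGCE 5, BAGCE 10, BAGCE 82 and Pioneiro, and the low lignin entries were BAGCE 7, BAGCE 32, BAGCE 96 and BAGCE 98. No treatment, age or genotype beyond the entry is given, and each entry was sampled 1 time, so what differs by entry and what varies from plant to plant cannot be told apart. P-values below set the difference between the lignin groups against the spread between these 8 libraries, each of a different entry. The files hold 15405987 to 17997520 reads per library in high lignin and 14925391 to 16970262 in low lignin. BAGCE 5 was the library most often at an extreme in the levels of these loci, and the main counts below are also given over the other 7 libraries.

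The spread of the 200 loci ran from an SD of 2.06 to 3.33 on the log2 scale, with a median of 2.27, against a median of 0.71 for the other 29854 loci within the limits. The highest entry exceeded the lowest by 25.2-fold to 710.5-fold in the 200 loci, with a median of 101-fold. The median was 4.23-fold in the other loci. Counting error alone would give an SD of 0.0567 to 0.296 in the 200 loci, with a median of 0.162. These values take each summed read as a separate read, and are too small where reads were counted for more than 1 transcript. Because each entry has 1 library, the rest of the spread covers the genotype, the plant and the handling together. The loci next to the limit differed little: MSTRG.58391 and MSTRG.12001, the last inside, had an SD of 2.058 and 2.057, and MSTRG.4184 and MSTRG.18596, the first outside, each had 2.056.

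The widest spread was that of MSTRG.40057, whose longest transcript has 832 bases. It had 0.556, 4.43, 99.6 and 4.9 CPM in the high lignin entries BAGCE 5, BAGCE 10, BAGCE 82 and Pioneiro, against 2.25, 283, 212 and 39.1 CPM in the low lignin entries BAGCE 7, BAGCE 32, BAGCE 96 and BAGCE 98. The 2 groups overlapped: BAGCE 32 and BAGCE 96 of low lignin and BAGCE 82 of high lignin were high, and BAGCE 5, BAGCE 7, BAGCE 10 and Pioneiro low. The fold between BAGCE 32 and BAGCE 5 was 509. The value of BAGCE 5 rests on 10 reads, with an exact Poisson 95% interval of 4.8 to 18.4 reads, or 0.266 to 1.02 CPM, so the fold has a wide counting error. The locus has 2 transcripts, and the interval is too narrow if reads were counted for both.

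The largest fold among the 200 loci, 710.5, was that of MSTRG.17512, with 5 transcripts. Its levels were 0.945, 671, 22.3 and 10.8 CPM in high lignin BAGCE 5, BAGCE 10, BAGCE 82 and Pioneiro, against 4.37, 42, 655 and 39.7 CPM in low lignin BAGCE 7, BAGCE 32, BAGCE 96 and BAGCE 98. BAGCE 10 and BAGCE 96, from different lignin groups, were nearly equal and far above the other 6 entries. In MSTRG.21234 there were 0.556, 252, 134 and 42.6 CPM in high lignin BAGCE 5, BAGCE 10, BAGCE 82 and Pioneiro, against 19.8, 244, 245 and 4.69 CPM in low lignin BAGCE 7, BAGCE 32, BAGCE 96 and BAGCE 98. Here BAGCE 10, BAGCE 96 and BAGCE 32 lay close together, with BAGCE 82 next, and BAGCE 5 was lowest.

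Other leading loci had other entries at their ends. MSTRG.64169 had 14, 19.4, 177 and 1.38 CPM in high lignin BAGCE 5, BAGCE 10, BAGCE 82 and Pioneiro, against 28.5, 295, 46.3 and 0.737 CPM in low lignin BAGCE 7, BAGCE 32, BAGCE 96 and BAGCE 98. Its lowest entries were BAGCE 98 and Pioneiro, and its highest were BAGCE 32 and BAGCE 82. For MSTRG.22768 the levels were 1, 10.4, 27.7 and 247 CPM in high lignin BAGCE 5, BAGCE 10, BAGCE 82 and Pioneiro, against 7.27, 24.4, 370.3 and 300.1 CPM in low lignin BAGCE 7, BAGCE 32, BAGCE 96 and BAGCE 98. A group of 3 entries, BAGCE 96, BAGCE 98 and Pioneiro, was above all others, by a gap of 36.99% of the whole log2 range. MSTRG.61386 was at 19.1, 13.7, 3.25 and 0.807 CPM in high lignin BAGCE 5, BAGCE 10, BAGCE 82 and Pioneiro, against 126, 94.6, 0.943 and 1.21 CPM in low lignin BAGCE 7, BAGCE 32, BAGCE 96 and BAGCE 98. BAGCE 7 and BAGCE 32 were highest, and Pioneiro, BAGCE 96 and BAGCE 98 were close to 1 CPM.

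MSTRG.56157 had 163, 6.95, 37.5 and 0.576 CPM in high lignin BAGCE 5, BAGCE 10, BAGCE 82 and Pioneiro, against 1.42, 35, 7.72 and 95.4 CPM in low lignin BAGCE 7, BAGCE 32, BAGCE 96 and BAGCE 98. BAGCE 5 was highest and Pioneiro lowest, both high lignin entries. MSTRG.30920 showed the clearest division of the 10 leading loci, with 31.8, 101, 96.1 and 1.04 CPM in high lignin BAGCE 5, BAGCE 10, BAGCE 82 and Pioneiro, against 93.5, 51.1, 56.3 and 0.938 CPM in low lignin BAGCE 7, BAGCE 32, BAGCE 96 and BAGCE 98. Pioneiro and BAGCE 98 were near 1 CPM and the other 6 entries lay between 31.8 and 101 CPM, a gap of 73.22% of the range. The remaining leading loci, MSTRG.7274 and MSTRG.12507, are described with the loci they resemble.

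**Figure D1:**
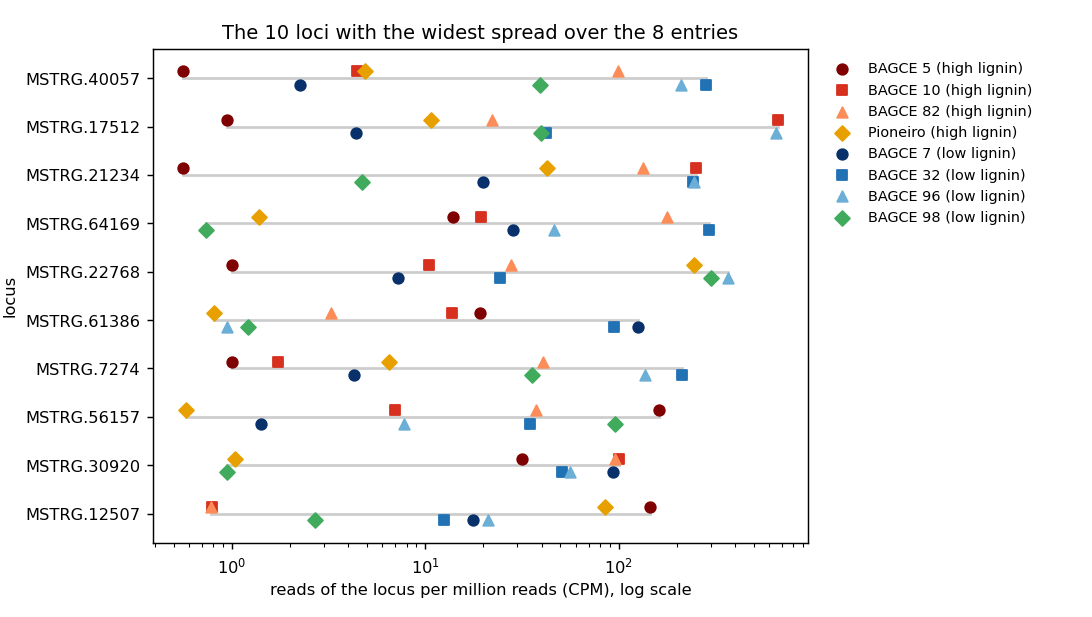
Level (CPM, log scale on the horizontal axis) of the 10 loci with the largest SD of log2 CPM, 1 row per locus with the widest at the top and 1 symbol per entry. Red and yellow symbols, drawn above the line, are high lignin entries, blue and green symbols below it are low lignin entries, and the grey line joins the lowest and highest entry. In MSTRG.40057 BAGCE 5 lies at 0.556 CPM and BAGCE 32 at 283 CPM, and symbols of the 2 lignin groups are mixed in each row.

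At the low end many of these loci were barely above the limit of 10 reads. The library with the fewest reads had under 20 in 116 of the 200 loci (58%), against 19% of the other loci within the limits, and at least 50 in 28 loci (14%), against 54.8%. A limit of 20 reads in each library would keep 84 of the 200, and a limit of 50 reads 28. A limit of 5 reads would also keep 85, since wider loci with 5 to 9 reads in a library then take places. Which loci are the most variable therefore rests largely on the limit of reads. The locus with the most reads at its low end was MSTRG.12001, where no library had under 244 reads, and it had 554, 317, 41.5 and 14.1 CPM in high lignin BAGCE 5, BAGCE 10, BAGCE 82 and Pioneiro, against 254, 163, 29.9 and 17.4 CPM in low lignin BAGCE 7, BAGCE 32, BAGCE 96 and BAGCE 98. Here the SD of 2.06 does not rest on a few reads.

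BAGCE 5 was the most frequent extreme. It had the lowest level in 79 of the 200 loci (39.5%), against 18.3% of the other loci within the limits, and the highest in 36 (18%), against 18.2%. It was the highest or the lowest in 115 (57.5%), against 36.5%. BAGCE 7 was lowest in 1 locus (0.5%), against 12.5%, and highest in 30 (15%), against 8.55%. Over the 7 libraries without BAGCE 5 it was lowest in 22 of the 200, with no such count for the other loci. BAGCE 32 was highest most often, in 44 loci (22%), against 10.8%, and Pioneiro was highest in 14 (7%), against 18.8% of the other loci, and lowest in 29 (14.5%), against 4.91%. Both the highest and the lowest entry were high lignin entries in 61 loci (30.5%), against 22.3% of the other loci, and both were low lignin entries in 22 (11%), against 20.7%. Without BAGCE 5, which leaves 3 high lignin entries, both were high lignin in 39 (19.5%), against 16%, and both low lignin in 48 (24%), against 32.3%. CPM is scaled to the library total only. The other loci had their highest median log2 CPM in Pioneiro (3.31) and BAGCE 98 (3.25) and their lowest in BAGCE 10 (2.84) and BAGCE 32 (2.88). A shift between libraries weighs more in loci of narrow spread, and its part in these shares was not tested.

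**Figure D2:**
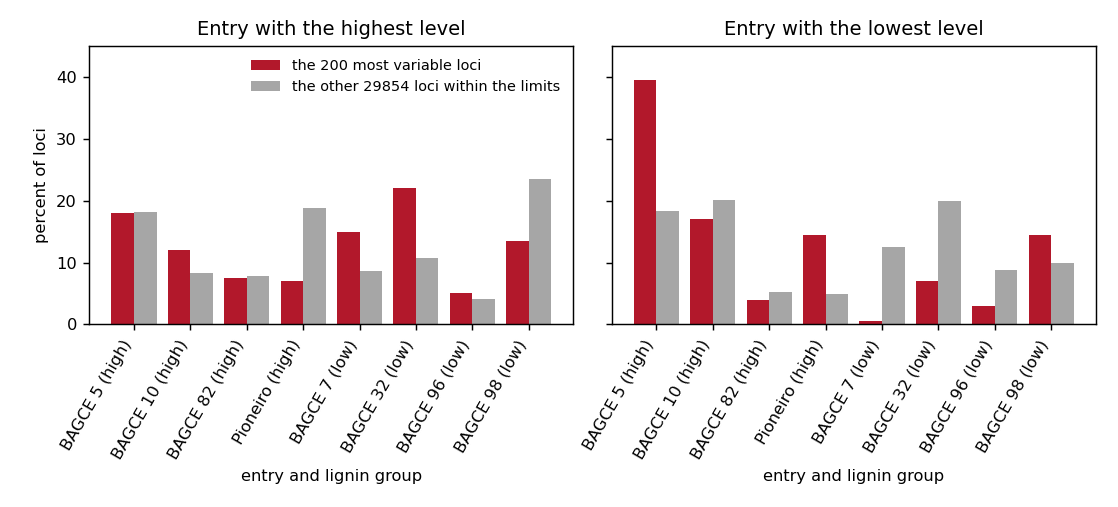
Percent of loci (vertical axis) in which each entry (horizontal axis, with its lignin group) had the highest level, left, or the lowest level, right. Red bars are the 200 most variable loci and grey bars the other 29854 loci within the limits. Over all 8 libraries BAGCE 5 was lowest in 39.5% of the 200 loci and in 18.3% of the others. BAGCE 7 was lowest in 0.5% and 12.5%.

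Without BAGCE 5 the same 200 loci had a median SD of 2.13 over the remaining 7 libraries, against 0.667 for the other loci within the limits. With 7 libraries the rule would choose 91 of the 200 again. Among those 7 entries BAGCE 10 was lowest in 53 of the 200 loci, Pioneiro in 47, BAGCE 98 in 36 and BAGCE 7 in 22. BAGCE 32 was highest in 45. These counts were not made for the other loci, so nothing is read from them. By the median SD above, many of the loci kept a wide spread without BAGCE 5. Still, BAGCE 5 decides more than any other entry which loci are chosen: leaving out another library kept 150 to 182 of the 200.

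The entries of each locus were divided at the largest gap between neighbouring log2 CPM values. That gap exceeded 4-fold in 149 of the 200 loci (74.5%), against 3.32% of the other loci, and it covered a median of 36.8% of the range, against 35.3%. The gap was over 50% of the range in 38 loci (19%), against 10.5%. BAGCE 5 alone lay below the gap in 39 loci (19.5%), against 6.89% of the other loci. Without BAGCE 5 these 39 had a median SD of 1.28, and 1 of them would be chosen again. The next most frequent division set BAGCE 82, BAGCE 32, BAGCE 96 and BAGCE 98 above the other 4 entries, in 12 loci (6%), against 0.365%. In 11 loci (5.5%), against 0.64%, Pioneiro and BAGCE 98 were below the rest. In all, 60 different divisions occurred among the 200 loci, and none of the 200 was divided exactly by lignin group, a division also rare among the 29854 other loci (6 with high lignin above, 0.0201%, and 4 with low lignin above, 0.0134%). Nothing is read from the 0. Entries BAGCE 5, BAGCE 7 and Pioneiro were all above the other 5 in 24 loci (12%), against 7.8%, and all below in 21 (10.5%), against 4.97%.

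Loci in which 1 entry departed from the other 7 show the range of these patterns. The largest such gap was that of MSTRG.17748, with 0.667, 104, 37.9 and 59.6 CPM in high lignin BAGCE 5, BAGCE 10, BAGCE 82 and Pioneiro, against 30.6, 30.9, 92.8 and 113 CPM in low lignin BAGCE 7, BAGCE 32, BAGCE 96 and BAGCE 98. BAGCE 5 was 45.9-fold below the nearest entry, BAGCE 7, while the other 7 entries stayed within 30.6 to 113 CPM. The opposite case was MSTRG.60009, with 177, 1.12, 4.74 and 3.34 CPM in high lignin BAGCE 5, BAGCE 10, BAGCE 82 and Pioneiro, against 2.72, 1.71, 3.3 and 2.81 CPM in low lignin BAGCE 7, BAGCE 32, BAGCE 96 and BAGCE 98. There BAGCE 5 was 37.4-fold above the nearest entry, and it was so placed, alone above the gap, in 10 loci (5%), against 5.62% of the other loci.

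BAGCE 10 stood alone above the gap in 3 loci (1.5%), against 1.68% of the other loci, led by MSTRG.40006 at 4.89, 79.1, 1.23 and 0.922 CPM in high lignin BAGCE 5, BAGCE 10, BAGCE 82 and Pioneiro, against 0.945, 1.16, 1.83 and 1.07 CPM in low lignin BAGCE 7, BAGCE 32, BAGCE 96 and BAGCE 98. BAGCE 10 lay 16.2-fold above BAGCE 5, the nearest. It stood alone below in 6 loci (3%), against 6.04%, led by MSTRG.10247 at 396, 0.672, 9.02 and 91.3 CPM in high lignin BAGCE 5, BAGCE 10, BAGCE 82 and Pioneiro, against 44.9, 9.66, 17.9 and 8.17 CPM in low lignin BAGCE 7, BAGCE 32, BAGCE 96 and BAGCE 98. In this locus the other entries were themselves spread widely, with BAGCE 5 at the top. Pioneiro was alone below the gap in 3 loci (1.5%), against 0.991%, led by MSTRG.60340, at 1.04 CPM in Pioneiro against 16.4 to 161 CPM in the other entries. It was alone above in 4 (2%), against 4.65%, led by MSTRG.58391, at 78.3 CPM in Pioneiro against 12.6 CPM in BAGCE 10, the nearest.

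Of the low lignin entries, BAGCE 98 was alone below the gap in 9 loci (4.5%), against 3.04% of the other loci, and in the first of these, MSTRG.33915, it had 1.21 CPM, against 21.3 CPM in the nearest, BAGCE 10, and 231 CPM in the highest, BAGCE 7. It was alone above in 3 (1.5%), against 5.91%, led by MSTRG.55022, with 182.5 CPM against 33.6 CPM in BAGCE 82. BAGCE 7 was alone above in 4 loci (2%), against 2.04%, led by MSTRG.45654, with 129.9 CPM against 13.6 CPM in BAGCE 10, and alone below in 0, against 2.89%. BAGCE 32 was alone above in 4 loci (2%), against 2.08%, led by MSTRG.51769, with 304 CPM against 36.9 CPM in BAGCE 7. It was alone below in 1 (0.5%, against 5.3%), MSTRG.25570, with 0.612 CPM against 10.5 CPM in BAGCE 98. BAGCE 96 was alone below in 1 locus (0.5%, against 1.7%), MSTRG.21120, with 1.3 CPM against 18.9 CPM in BAGCE 98. BAGCE 82 was alone on neither side in any of the 200 loci, against 1.14% of the other loci above and 0.653% below. Most of these shares are at or below those of the other loci, and those of BAGCE 5 below, BAGCE 98 below and Pioneiro below are above them. The shift of the other loci between libraries, given above, bears on these shares too, and its part was not tested.

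**Figure D3:**
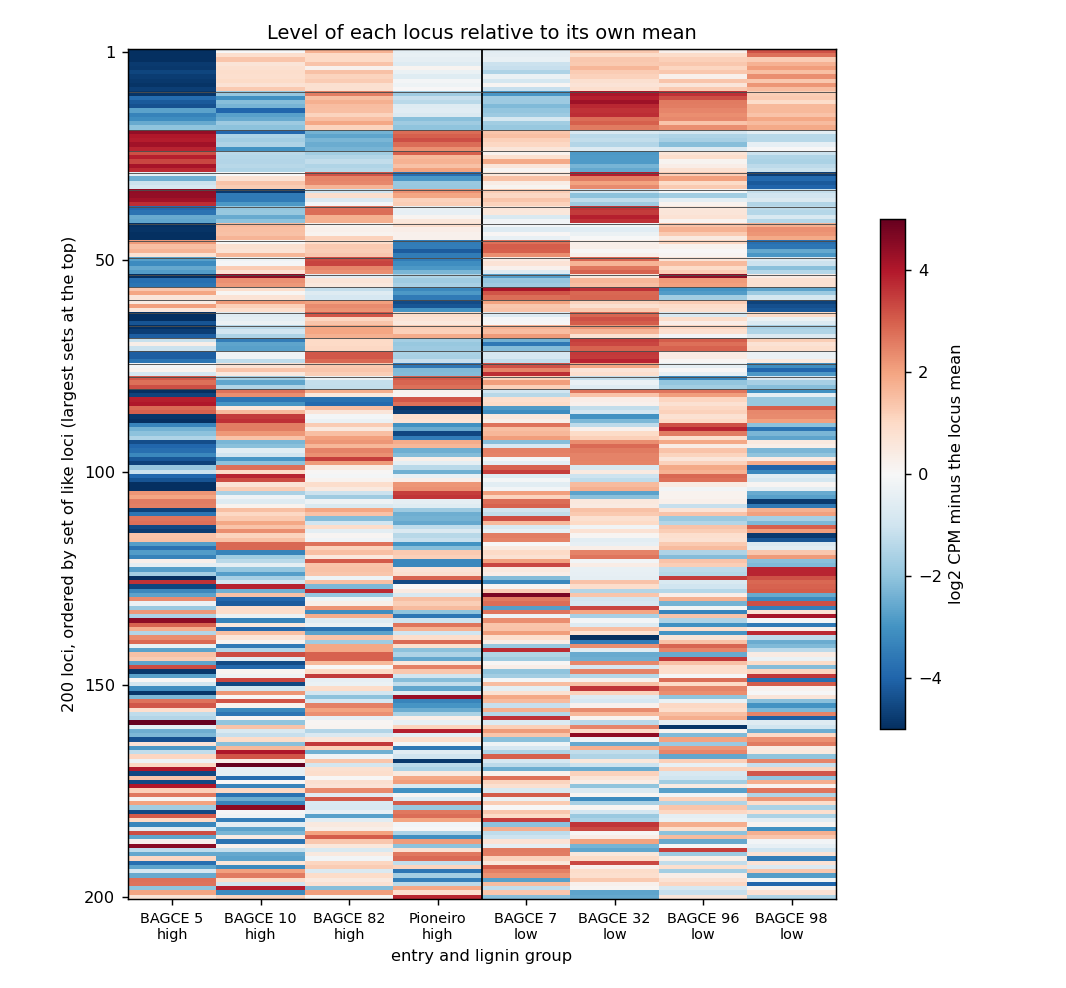
Log2 CPM of each of the 200 loci minus the mean of that locus over the 8 entries (colour, red above and blue below the mean, with colours ending at 5 on either side). Columns are entries, the 4 high lignin entries left of the black line and the 4 low lignin entries right of it, and rows are loci ordered by set of loci with like levels, with thin lines under sets of 3 or more. The column of BAGCE 5 holds long blue stretches, as it was lowest in 79 loci.

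Over the 200 loci, entries of the same lignin group were not the closest. The median difference between 2 entries was smallest for BAGCE 82 and BAGCE 32, a high and a low lignin entry, at 1.06 on the log2 scale, or 2.09-fold. It was 1.27 for BAGCE 82 and BAGCE 96, 1.37 for BAGCE 32 and BAGCE 96, 1.51 for BAGCE 10 and BAGCE 96 and 1.57 for Pioneiro and BAGCE 7. The largest medians were those of BAGCE 5 with BAGCE 32, BAGCE 98 and BAGCE 82, at 4.22, 4.15 and 4.07. BAGCE 5 was closest to Pioneiro and BAGCE 7, at 2.83 and 2.95, less than the 3.04 between BAGCE 10 and Pioneiro. The mean over pairs was 2.99 within high lignin (6 pairs), 2.10 within low lignin (6 pairs) and 2.41 between the groups (16 pairs). Without BAGCE 5 it was 2.52 within high lignin (3 pairs) and 1.95 between the groups (12 pairs), below the 2.10 within low lignin, so the order of the last 2 rests on BAGCE 5. For BAGCE 5 and BAGCE 32 the median difference was 4.37 times that of the other loci within the limits, and for BAGCE 82 and BAGCE 32 it was 1.97 times.

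Many of the 200 loci had nearly the same profile over the entries as another. Pearson's r of log2 CPM over the 8 libraries was over 0.9 in 406 of 19900 pairs of these loci (2.04%), against 0.52% of the pairs among the other loci within the limits, and under -0.9 in 81 pairs (0.407%), against 0.216%. All points share the same 8 libraries, and loci with a narrow spread carry more counting error in r. When loci were joined into sets in which every pair had r over 0.9, 124 of the 200 fell into 41 sets of 2 or more, 53 of them into 10 sets of 4 or more, and 76 stayed alone. The sets were formed from the values themselves and are a description. Reads that fit 2 loci may have been shared between them, also far apart in number. MSTRG.66631 and MSTRG.60809, 5822 numbers apart, had an r of 0.9999. How many of the pairs and sets hold such loci was not tested. Over the 7 libraries without BAGCE 5, 352 pairs had r over 0.9 (1.77%), against 0.833% of the pairs among the other loci, and 132 of the 200 loci fell into 48 sets of 2 or more, 43 of them into 8 sets of 4 or more.

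The largest set held 10 loci, among them MSTRG.56222, MSTRG.28839 and MSTRG.42371, and BAGCE 5 was lowest in each of them. Its medians were 0.833, 43, 60.5 and 23.1 CPM in high lignin BAGCE 5, BAGCE 10, BAGCE 82 and Pioneiro, against 19.9, 68.8, 54.1 and 114 CPM in low lignin BAGCE 7, BAGCE 32, BAGCE 96 and BAGCE 98. BAGCE 5 ran from 0.611 to 2.5 CPM in these loci, and BAGCE 7, usually the next lowest, from 9.45 to 46.9 CPM. No 2 of the 10 loci were closer than 3384 locus numbers. The likeness of this set rests on BAGCE 5: the lowest r within it was 0.914 over 8 libraries and 0.602 without BAGCE 5.

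A set of 9 loci formed around MSTRG.40057 and included MSTRG.7274, MSTRG.61395 and MSTRG.49029, which ranked 7, 11 and 12 in spread. The medians of the 9 loci were 1, 2.24, 40.9 and 5.82 CPM in high lignin BAGCE 5, BAGCE 10, BAGCE 82 and Pioneiro, against 3.31, 160.0, 85.2 and 39.1 CPM in low lignin BAGCE 7, BAGCE 32, BAGCE 96 and BAGCE 98. BAGCE 32, BAGCE 96, BAGCE 82 and BAGCE 98 were above the other 4 entries at the median, and BAGCE 32 ran from 33 to 501 CPM, against 0.556 to 2.33 CPM in BAGCE 5. The lowest r within the set was 0.907, and 0.909 without BAGCE 5. MSTRG.7274 itself had 1, 1.74, 40.9 and 6.51 CPM in high lignin BAGCE 5, BAGCE 10, BAGCE 82 and Pioneiro, against 4.25, 214, 136 and 35.7 CPM in low lignin BAGCE 7, BAGCE 32, BAGCE 96 and BAGCE 98. These values follow those of MSTRG.40057 with an r of 0.970.

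In other sets BAGCE 5 was at the top. The set of MSTRG.47414, with 5 loci, had medians of 157, 2.63, 1.82 and 82.1 CPM in high lignin BAGCE 5, BAGCE 10, BAGCE 82 and Pioneiro, against 27.8, 3.85, 3.36 and 4.82 CPM in low lignin BAGCE 7, BAGCE 32, BAGCE 96 and BAGCE 98. The next highest entries were Pioneiro and BAGCE 7. The set of MSTRG.16524, also with 5 loci, had medians of 205, 4.48, 4.15 and 60 CPM in high lignin BAGCE 5, BAGCE 10, BAGCE 82 and Pioneiro, against 17.9, 2.32, 14.6 and 4.69 CPM in low lignin BAGCE 7, BAGCE 32, BAGCE 96 and BAGCE 98. BAGCE 5 and Pioneiro again led at the median, but BAGCE 96 was above BAGCE 98 and BAGCE 32 was the lowest of all. Without BAGCE 5 the lowest r was 0.861 in the set of MSTRG.47414 and 0.876 in that of MSTRG.16524.

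**Figure D4:**
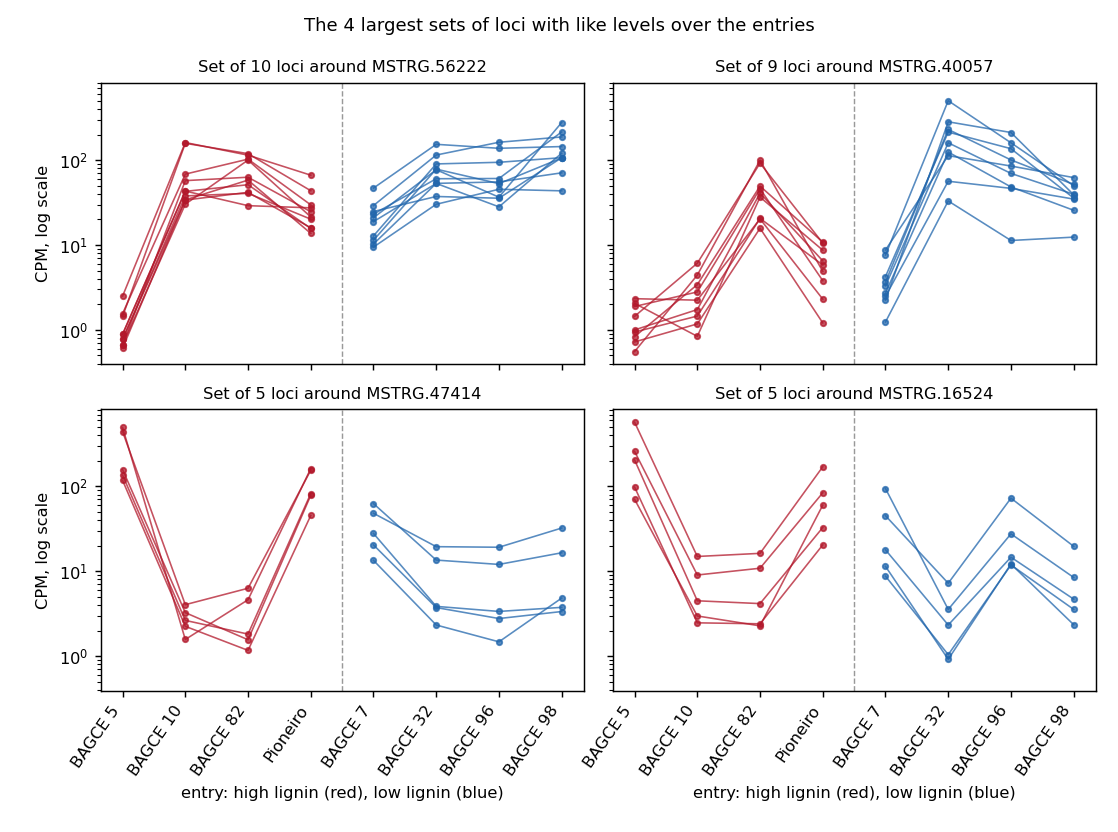
CPM (log scale on the vertical axis) in each entry (horizontal axis) for the 4 largest sets of the 200 loci in which every pair had r over 0.9 across the 8 libraries. Each line joins the values of 1 locus, red for the 4 high lignin entries and blue for the 4 low lignin entries, and has no meaning between entries. In the set of 10 loci BAGCE 5 lies at 0.611 to 2.5 CPM and in the set around MSTRG.47414 at 118 to 493 CPM.

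In some smaller sets, such as those of MSTRG.47571 and MSTRG.17748, BAGCE 5 again had the lowest median, at 1.22 and 0.722 CPM. Others had their low ends in other entries. The 4 loci of the set led by MSTRG.1840 had medians of 47.8, 25.1, 35.7 and 1.32 CPM in high lignin BAGCE 5, BAGCE 10, BAGCE 82 and Pioneiro, against 118, 18.3, 23.9 and 1.84 CPM in low lignin BAGCE 7, BAGCE 32, BAGCE 96 and BAGCE 98. Pioneiro and BAGCE 98 were low and BAGCE 7 was highest. In the 4 loci led by MSTRG.64169 the medians were 14.4, 55.8, 146 and 5.47 CPM in high lignin BAGCE 5, BAGCE 10, BAGCE 82 and Pioneiro, against 41.8, 164, 67.2 and 1.44 CPM in low lignin BAGCE 7, BAGCE 32, BAGCE 96 and BAGCE 98. BAGCE 98 and Pioneiro were low here too, but BAGCE 32 and BAGCE 82 were highest.

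The profiles of these sets also occurred among loci that the rule had not chosen. Of the 29854 other loci within the limits, 423 (1.42%) had an r over 0.9 with the mean profile of the 10-locus set, 408 (1.37%) with that of the 9-locus set, 484 (1.62%) with the set of MSTRG.47414 and 509 (1.7%) with that of MSTRG.16524. For the set of MSTRG.64169 it was 60 (0.201%).

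Locus numbers were compared as a possible guide to position, although the files do not state that they follow the genome. Among neighbours with consecutive numbers that met the limits, 4 of 161 (2.48%) were also among the 200, counting each pair from both sides. At 2 to 5 numbers apart it was 16 of 690 (2.32%), at 6 to 10 it was 8 of 868 (0.922%) and at 11 to 50 it was 34 of 7054 (0.482%), where 0.665% of all loci within the limits are among the 200. Neighbours that were not chosen had a median r of 0.05 with the chosen locus at consecutive numbers and -0.05 at 2 to 5. An r over 0.9 occurred in 6 of 157 of them (3.82%) at consecutive numbers, against 0.593% at 2 to 5, 0.698% at 6 to 10 and 0.556% at 11 to 50. Their median SD was 0.848 at consecutive numbers and 0.725 at 2 to 5, against 0.71 over all loci not chosen.

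Of 14 pairs of the 200 loci within 10 numbers of each other, 6 had r over 0.9. MSTRG.20311 and MSTRG.20312, the closest in profile with an r of 0.997, are numbered consecutively. MSTRG.20311 had 0.556, 8.35, 84.8 and 51.7 CPM in high lignin BAGCE 5, BAGCE 10, BAGCE 82 and Pioneiro, against 71.3, 100.2, 45.9 and 6.9 CPM in low lignin BAGCE 7, BAGCE 32, BAGCE 96 and BAGCE 98, and BAGCE 5 was lowest. MSTRG.20312 followed it with 0.778, 10.5, 80.2 and 46.7 CPM in high lignin BAGCE 5, BAGCE 10, BAGCE 82 and Pioneiro, against 59.4, 66.6, 36.1 and 7.24 CPM in low lignin BAGCE 7, BAGCE 32, BAGCE 96 and BAGCE 98. MSTRG.13703 and MSTRG.13704, the other consecutive pair, had BAGCE 5 highest, at 205 and 97.96 CPM, and BAGCE 32 lowest, at 2.32 and 0.917 CPM.

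A pair 2 numbers apart, MSTRG.12507 and MSTRG.12509, had longest transcripts of 734 and 755 bases and an r of 0.993. MSTRG.12507 had 145, 0.785, 0.779 and 85 CPM in high lignin BAGCE 5, BAGCE 10, BAGCE 82 and Pioneiro, against 17.7, 12.5, 21.1 and 2.68 CPM in low lignin BAGCE 7, BAGCE 32, BAGCE 96 and BAGCE 98. MSTRG.12509 had 189, 1.51, 0.779 and 78.8 CPM in high lignin BAGCE 5, BAGCE 10, BAGCE 82 and Pioneiro, against 22.4, 13.6, 19.9 and 3.15 CPM in low lignin BAGCE 7, BAGCE 32, BAGCE 96 and BAGCE 98. Neither exceeded 1.51 CPM in BAGCE 10 and BAGCE 82, and both were highest in BAGCE 5 and Pioneiro. The pair MSTRG.10747 and MSTRG.10754, of 731 and 732 bases, had an r of 0.991, with BAGCE 10 highest at 239 and 413 CPM and BAGCE 5 lowest at 0.722 and 0.889 CPM. The 6 loci numbered between them met the limits, were not among the 200 and had an r of -0.17 to 0.68 with MSTRG.10747. Reads that fit both loci of such a pair may have been shared between them, and how the authors' counting divided such reads is not given in the sources used here, so the values of near-identical loci are uncertain.

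Within loci, the use of transcripts was a measure the rule did not take into account. It could be followed in 94 of the 97 loci with 2 or more transcripts, over the libraries with at least 50 reads of the locus (at least 4 libraries). The share of the leading transcript differed between its lowest and highest library by a median of 5.30 percentage points, against 4.07 in 11585 other loci. The transcript with most reads changed between libraries in 43 of the 94 loci (45.7%), against 45.5% of the others. The summed level of a locus varied widely while the counted shares of its transcripts differed by a median of a few points, as they did in the other loci. Transcripts of a locus share exons, and reads that fit several may have been counted for each.

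There were exceptions. MSTRG.61473 was the 1 locus of the 94 with a range over 50 points (1.06%, against 0.337% of the others), from 35.3% in BAGCE 96 to 91.9% in BAGCE 32. Its longer transcript, MSTRG.61473.2 of 2589 bases, had 0, 0, 0 and 784 reads in high lignin BAGCE 5, BAGCE 10, BAGCE 82 and Pioneiro, against 114, 102, 24 and 8 reads in low lignin BAGCE 7, BAGCE 32, BAGCE 96 and BAGCE 98. The shorter, MSTRG.61473.1 of 938 bases, had 12, 38, 20 and 142 reads in high lignin BAGCE 5, BAGCE 10, BAGCE 82 and Pioneiro, against 154, 9, 44 and 2 reads in low lignin BAGCE 7, BAGCE 32, BAGCE 96 and BAGCE 98. Pioneiro and BAGCE 32, and BAGCE 98 on few reads, mainly held the longer transcript, and BAGCE 5, BAGCE 10 and BAGCE 82 had reads of the shorter only, on 12 to 38 reads.

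MSTRG.64834 had 8 transcripts that fell into 2 groups in BAGCE 5. The summed reads of MSTRG.64834.3 and MSTRG.64834.6 were 1111, 707, 92 and 209 reads in high lignin BAGCE 5, BAGCE 10, BAGCE 82 and Pioneiro, against 712, 330.0, 707 and 30 reads in low lignin BAGCE 7, BAGCE 32, BAGCE 96 and BAGCE 98. The summed reads of the other 6 transcripts were 0, 10250.0, 605 and 32 reads in high lignin BAGCE 5, BAGCE 10, BAGCE 82 and Pioneiro, against 236, 790.0, 6321 and 36 reads in low lignin BAGCE 7, BAGCE 32, BAGCE 96 and BAGCE 98. BAGCE 5 therefore had no read of these 6 transcripts, which allows a level of up to 0.167 CPM on the limit of 3 reads, counting error only, and the highest level of the other 2, at 61.7 CPM. BAGCE 10 and BAGCE 96 were highest for the 6 transcripts, at 574 and 372.5 CPM. This locus was grouped by its values in BAGCE 5 after they were seen. In MSTRG.64696 the leading transcript, MSTRG.64696.1, took 32.9% of the reads in Pioneiro and 65.4% in BAGCE 82.

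The comparison the series was set up for, high against low lignin, was made for each locus over all 46894 loci that passed edgeR's filter, all 200 among them. With edgeR's quasi-likelihood test 0 of the 200 passed an adjusted p of 0.05, and 0% of all loci tested did. The smallest adjusted p of the 200 was 0.9997 and that of all loci was 0.768. At an unadjusted p under 0.05, 5 of the 200 were higher and 9 lower in high lignin, where 0.968% and 1.5% of all loci tested were. Limma-voom also passed 0 of the 200, with 7 at an unadjusted p under 0.05 (2.47% of all loci tested). DESeq2 passed 1 of the 200, MSTRG.53893, where 0.0872% of the 59649 loci it gave an adjusted p passed, left 19 of the 200 with no adjusted p, and had 32 at an unadjusted p under 0.05 (4.71% of its loci). The rule took these loci for their spread over the same 8 libraries, so nothing is read from these counts. The 200 loci had a median absolute log2 fold change of 1.08 with a median standard error (SE) of 1.24, against 0.42 and 0.60 over all loci tested. Over the 200 loci the SD of log2 CPM had a median of 2.64 inside the high lignin group (2.26 without BAGCE 5) and 1.92 inside the low lignin group.

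Every high lignin entry was below every low lignin entry in 1 of the 200 loci, where 0.578% of all loci tested had that order, and every one above in 0, where 0.614% did. That locus, MSTRG.53893 of 988 bases, had 9.67, 0.785, 15.1 and 7.78 CPM in high lignin BAGCE 5, BAGCE 10, BAGCE 82 and Pioneiro, against 53.1, 50.1, 36.2 and 148 CPM in low lignin BAGCE 7, BAGCE 32, BAGCE 96 and BAGCE 98. Its mean was 8.32 ± 5.90 CPM over the high lignin entries and 71.9 ± 51.3 CPM over the low lignin entries (± SD of 4 entries). The log2 fold change was -3.13 (SE 0.77), and the adjusted p was 0.9997 by edgeR, 0.961 by limma-voom and 0.0468 by DESeq2. MSTRG.51769 also had a low p among the lower loci, but its mean of 93.1 ± 142 CPM in low lignin rests on BAGCE 32, against 6.98 ± 3.14 CPM in high lignin (± SD of 4 entries). Its log2 fold change of -3.88 became -1.71 without BAGCE 32.

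Of the loci higher in high lignin, MSTRG.41804 had the smallest p, with 30.8, 106, 85.9 and 3.8 CPM in high lignin BAGCE 5, BAGCE 10, BAGCE 82 and Pioneiro, against 3.96, 1.96, 1.95 and 14.9 CPM in low lignin BAGCE 7, BAGCE 32, BAGCE 96 and BAGCE 98. The mean was 56.7 ± 47.5 CPM over the high lignin entries and 5.68 ± 6.20 CPM over the low lignin entries (± SD of 4 entries). The fitted log2 fold change was 3.52 (SE 1.08), and edgeR's adjusted p was 0.9997. Pioneiro, at 3.80 CPM, lay among the low lignin entries. MSTRG.40006 followed, with the values given above, and rests on BAGCE 10: its log2 fold change of 4.28 became 0.87 without it.

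**Figure D5:**
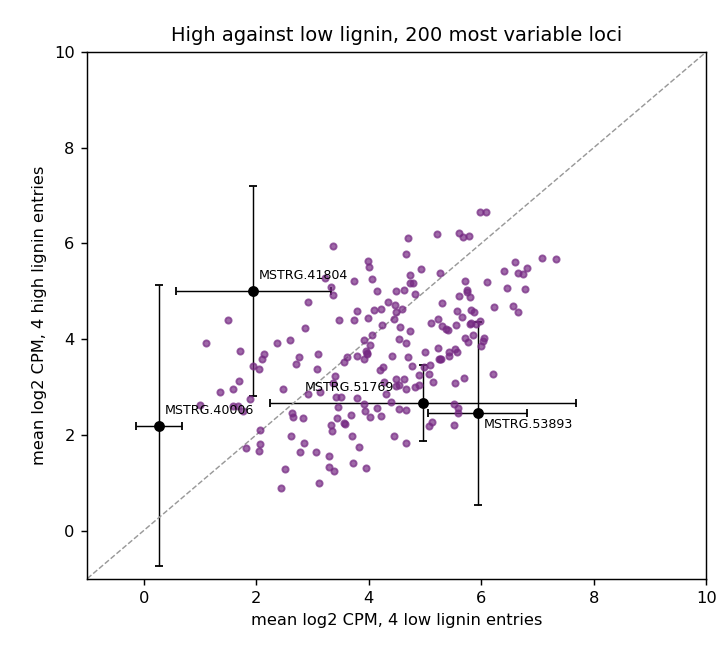
Mean log2 CPM of each of the 200 loci in the 4 high lignin entries (vertical axis) and in the 4 low lignin entries (horizontal axis), with the dashed line where the means are equal. Black points are the 4 loci with the smallest p in either direction, with bars of 1 SD over 4 entries on each axis. The bars of MSTRG.40006 and MSTRG.51769 are long on 1 axis. In MSTRG.40006 BAGCE 10 stands apart there. In MSTRG.51769 BAGCE 32 is high, at 304 CPM, and BAGCE 96 low, at 3.0 CPM.

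Summed, the 200 loci held 0.981% ± 0.184 of all reads over the high lignin entries and 1.11% ± 0.314 in the low lignin group (± SD of 4 entries). The difference of -0.132 percentage points was smaller than the SD of either group. An exact permutation test, two-sided, gave p = 0.543 (0.543 after adjustment over 2 tests), where 0.0286 is the smallest p that 4 against 4 allows. The difference was 0.016 without BAGCE 32, which had the highest share, 1.56%. The median log2 CPM of the 200 loci was 3.63 ± 1.12 over the high lignin entries and 4.46 ± 0.70 over the low lignin entries (± SD of 4 entries). The difference was -0.84, with p = 0.314 by the exact permutation test and 0.543 after adjustment. The loci had been chosen by their levels in the same libraries, so nothing is read from these 2 tests. BAGCE 5 had the lowest median, 2.12, and BAGCE 32 the highest, 4.99. Without BAGCE 5 the difference was -0.34.

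In structure the 200 loci were close to the others. The longest transcript of a locus had a median of 1459 bases, against 1630, and 97 of the 200 (48.5%) had 2 or more transcripts, against 42.4%. Per length, the mean level was a median of 40.7 in the 200 loci and 8.67 in the others in TPM, which is scaled to transcript length and to the library total. A locus with at least 10 reads in each library can spread widely only where its upper entries are high, so this difference follows in part from the rule. Levels ran from 5.51 TPM in MSTRG.54941 to 291.5 TPM in MSTRG.33471.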

How the data were processed

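Young stem RNA was measured in 8 libraries of napiergrass, 1 per germplasm entry, 4 of high and 4 of low lignin per the labels. Per the labels' protocols, RNA had an integrity number over 6.4 and stranded mRNA libraries were sequenced. The submitters' processing notes list Salmon 0.7.2, StringTie 2.0.4, STAR 2.5.2b and FastQC 0.11.8 without their roles. Genome build and annotation: not given in the sources used here. Per the file headers, the authors deposited for each of 101169 assembled transcripts its length and effective length in bases (other), an abundance in TPM, which in the authors' files is relative to transcript length and library, and an estimated read count. Of 809352 estimated counts deposited, 213 were not whole within 0.001 reads.

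Here the estimated counts were summed per locus, divided by the library total for CPM, and rounded to whole numbers per transcript before any test. The 200 loci, the alternatives and the rule for naming loci were chosen with earlier results of these data known. The rule named the 10 loci with the largest SD, the locus in which each library lies farthest above and below the other 7, the pairs with consecutive numbers (3 at most; 2 exist), the 3 with the largest change of transcript share, the 2 of smallest p in each direction of the lignin comparison and the 2 on either side of the limit. The set leaders, the near pairs and MSTRG.12001 as the locus with most reads at its low end were chosen after their values were seen. Each library is a different entry by its label and counts as its own replicate; no pair within a group agreed within counting error, as 1 library deposited 2 times would.

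The lignin test was the quasi-likelihood F-test of edgeR 4.0.16 under R 4.3.3, with TMM scaling, filterByExpr, a two-sided p, robust estimates and Benjamini-Hochberg adjustment over all loci; DESeq2 1.42.0 and limma-voom (limma 3.58.1) were alternatives. SE is the size of the log2 fold change over the root of F. Single values were compared with exact permutation tests (Python 3.11.15). Scripts were tested on simulated data. Intervals and floors (3 reads) cover counting error only and take each counted read as separate. Correlations were computed on log2 CPM over 8 libraries and no p is given for them.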

Additional observations from a re-analysis of the deposited data

Results flagged for a closer look

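Among 68 groups of 4 values tested (32 named loci, the summed share and the median level, in each lignin group), 3 had a library beyond Dixon's 95% limit of 0.829, where chance alone gives about 1 in 20. All the named loci had been chosen for a wide spread, and many for a library that stands apart. The rate of 1 in 20 does not hold for such values, so nothing is read from the count. In MSTRG.30920, BAGCE 98 was at a log2 CPM of -0.092, far below the other low lignin entries, of which BAGCE 32 was nearest at 5.68. In MSTRG.33915, BAGCE 5 was at 7.58, above the other high lignin entries, of which BAGCE 82 was nearest at 4.80. In MSTRG.64696, BAGCE 32 was at 7.24, above the other low lignin entries, of which BAGCE 96 was nearest at 5.32.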

How the results depend on the processing

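No paired analysis was possible because the labels tie no high lignin entry to a low lignin entry. Of the 200 loci, 140 to 186 were chosen again with TMM-adjusted library sizes (176), summed TPM (186), the most abundant transcript of each locus (140), the range in place of the SD (148) or libraries thinned to the smallest total (175). With a limit of 5, 20 or 50 reads 85, 84 and 28 were chosen again, and with the median absolute deviation 81. Leaving out 1 library kept 91 (without BAGCE 5) to 182. The division at the largest gap was the same in 177 loci with TMM, 191 with the most abundant transcript and 123 with 2-means. Loci with 1 entry alone on its side of the gap were 87, and 77 over the 7 libraries without BAGCE 5, an alternative added after seeing the data, like the other values without BAGCE 5. Loci called between the lignin groups stayed at 0 in edgeR with RLE scaling, no filter, single transcripts and each library left out (lowest 0, highest 0) and in limma-voom, with 472 (without BAGCE 32) to 2953 (without BAGCE 82) at an unadjusted p under 0.05 when a library was left out, and were 52 in DESeq2; the cause was not tested. The difference in the summed share, high minus low, ran from -0.232 to 0.0158 with libraries left out, reversed only without BAGCE 32, and that in the median level from -1.25 to -0.34; neither passed 0.05. The 4 named loci of the lignin comparison kept their sign in the alternatives that tested them, which lends it no support, as they were picked for a small p. The depth of 14925391 to 17997520 reads puts 10 reads under 1 CPM, and 116 of the 200 loci had a library with under 20 reads.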

Other observations

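Of 5 loci outside the limits that are numbered between near members of like profile, 1 had an r over 0.9 with the first member (on CPM with 0.05 added). MSTRG.47415 had an r of -0.11, MSTRG.7271 of 0.31, MSTRG.47416 of 0.60, MSTRG.12508 of 0.88 and MSTRG.47417 of 0.94. MSTRG.12508, numbered between MSTRG.12507 and MSTRG.12509, had 38, 0, 0 and 25 reads in high lignin BAGCE 5, BAGCE 10, BAGCE 82 and Pioneiro, against 42, 24, 75 and 2 reads in low lignin BAGCE 7, BAGCE 32, BAGCE 96 and BAGCE 98. It was at 0 in BAGCE 10 and BAGCE 82, the lowest entries of both neighbours. MSTRG.47417, numbered just before MSTRG.47418, had 154, 0, 4 and 108 reads in high lignin BAGCE 5, BAGCE 10, BAGCE 82 and Pioneiro, against 76, 6, 8 and 38 reads in low lignin BAGCE 7, BAGCE 32, BAGCE 96 and BAGCE 98. BAGCE 5 and Pioneiro were highest there, as they were in MSTRG.47414 and MSTRG.47418.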
